A study of Mus musculus with 3 samples.

Results

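The transcription factors that set hepatocyte identity were followed through ischemia and reperfusion in mouse liver. The 9 genes were picked by symbol from the 23361 genes listed, and comprise Hnf4a, Foxa1, Foxa2, Foxa3, Cebpa, Cebpb, Cebpd, Onecut1 and Prox1. All 9 passed the filter on low values, which asked that FPKM reach 1 in any library, as did 10792 genes in all. Liver RNA came from male C57BL/6J mice of 8 to 10 weeks by their labels, fasted for 12 h. Sham mice were opened by laparotomy and not clamped, and liver was taken after 90 min. In the WI (warm ischemia) group the vessels to the left and median lobes were clamped for 90 min, and in the IR (ischemia followed by reperfusion) group the same 90 min of clamping was followed by 120 min of reperfusion. Each group had 6 mice and gave 1 library, and whether that library pools the mice is not stated.

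These factors belong to a network in which several bind the control regions of others. They also act on genes that hepatocytes use for metabolism and for making plasma proteins. HNF4A is a nuclear receptor needed for the hepatocyte programme, and the FOXA proteins are forkhead factors known for opening chromatin in the liver lineage. C/EBPα sustains metabolic genes in resting hepatocytes, while C/EBPβ and C/EBPδ are the members of that family best known for induction by inflammatory cytokines. ONECUT1, also called HNF6, is a cut-homeodomain factor of hepatocytes and bile duct cells, and PROX1 is a homeodomain protein of hepatocytes and lymphatic endothelium that acts as a co-repressor of nuclear receptors.

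After ischemia alone, Onecut1 and Cebpd were the members that differed most, both lower in the WI sample than in Sham. After reperfusion Cebpd, Cebpb and Foxa3 were higher than in both other samples, and Prox1 was the lowest of its 3 values. Hnf4a and Cebpa differed from Sham by less than 2-fold in both the WI and the IR sample. With 1 library per group none of these differences has a replicate check, and no test between groups was made. FPKM scales the fragments of a gene to its transcript length and to the mapped fragments of the library, so levels of different genes can be set side by side. Each FPKM came with 95% bounds from Cuffdiff, which hold the spread that Cuffdiff models for a library and not the spread between mice.

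The libraries differed in ways that bear on the IR comparisons. Xist, the RNA of an inactive X chromosome, was listed at 18.9 FPKM in Sham, 20.1 in WI and 1.29 in IR. The Y-linked Eif2s3y was at 0, 0 and 13.2, and Ddx3y at 0, 0.00849 and 8.58. The Sham and WI libraries thus went against their male label in these genes. The IR library held Y-linked RNA, with Xist low but its bounds (0.639 to 1.94) above 0. The IR sample was also taken 120 min later than any other, without a Sham sample of that time. For every comparison with IR, reperfusion, the added time and the difference in sex-linked RNA cannot be told apart. The comparison of WI with Sham is free of the mismatch in sex-linked RNA and of the added time. The paper reports that a smaller share of read pairs aligned uniquely in IR than in Sham or WI. Of the 8 hepatocyte markers, 7 were abundant, from 148 to 8799 FPKM over the 3 libraries, and Alb was listed at 0 in all 3 with the status that Cuffdiff gives to loci with too many fragments. Of 7 neutrophil markers found, 5 passed the filter, and all 5 were at least 2-fold higher in IR than in WI (5.78% of all genes). Cxcr2, at 0.127, 0.163 and 3.65 FPKM, passed the filter only through IR, while Mpo and Elane stayed below 1 in every library. The filter thus favoured markers high in IR, so the count of 5 is not independent of it. The summed FPKM of the 7 was 25.4 in Sham, 19.3 in WI and 460 in IR, with Elane at 0 in WI and Mpo at 0 in IR. The summed FPKM of the 8 Kupffer cell and macrophage markers was 311, 168 and 109, and that of the 6 sinusoidal endothelial markers was 149, 118 and 86.8. Single markers did not all follow these sums. Cd68 (18.5, 12.3 and 18.5) and Marco (20.9, 12.6 and 25.3) were higher in IR than in WI, and the 6 others of their list were lower. Among the sinusoidal markers Pecam1 (10.2, 6.52 and 7.74) was higher in IR than in WI, and the 5 others were lower. In whole liver, fewer cells of a type and less RNA per cell cannot be told apart.

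The sequences before the starts of Cebpb, Foxa3 and Onecut1 are shown because these genes hold differences described here. RefSeq promoter windows on GRCm38.p6, the build of the files, were found for 8 of the 9 genes, all but Cebpd. The windows lie at chr2:167688665-167688914 (plus strand) for Cebpb, chr7:19023540-19023789 (minus strand) for Foxa3 and chr9:74861671-74861920 (plus strand) for Onecut1. Each ends at the last base before the annotated start, and capitals mark the matches found.

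Cebpb: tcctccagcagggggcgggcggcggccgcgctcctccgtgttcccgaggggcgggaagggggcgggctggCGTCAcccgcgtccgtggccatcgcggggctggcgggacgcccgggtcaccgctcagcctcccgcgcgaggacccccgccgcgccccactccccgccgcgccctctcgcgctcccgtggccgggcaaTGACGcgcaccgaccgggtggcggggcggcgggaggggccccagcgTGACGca
Foxa3: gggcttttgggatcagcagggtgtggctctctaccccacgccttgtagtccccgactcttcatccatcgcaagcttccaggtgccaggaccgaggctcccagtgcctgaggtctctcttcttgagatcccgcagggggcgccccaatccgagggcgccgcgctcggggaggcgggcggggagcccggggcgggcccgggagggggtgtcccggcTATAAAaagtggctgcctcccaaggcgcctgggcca
Onecut1: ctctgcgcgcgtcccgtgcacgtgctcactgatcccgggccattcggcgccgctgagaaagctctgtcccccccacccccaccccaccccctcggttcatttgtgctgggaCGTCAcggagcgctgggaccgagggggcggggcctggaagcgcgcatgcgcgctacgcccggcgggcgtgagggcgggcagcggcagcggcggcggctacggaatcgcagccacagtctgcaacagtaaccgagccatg

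The letters searched, on both strands, were TTGCNNAA for C/EBP, TGACGTCA for the full cyclic AMP response element, TGACG for its short form (which lies within the full element), and TTCCNGGAA for STAT proteins. Those for liver factors were TGTTTAC for FOXA proteins, ATCAAT for HNF6 and CAAAGTCCA for HNF4, and the promoter element that binds the basal machinery was searched as TATAAA. The Cebpb window held 3 short response elements, whose bases nearest to the start lie 176, 49 and 3 bases before it, and it had a GC content of 81.6% against a median of 52.4% over all windows. Short elements were present in 17.8% of the 32851 windows. The Onecut1 window held 1 short element, ending 135 bases before the start. The Foxa3 window held this last element, the TATA box, from 36 to 31 bases before the start, and Cebpa had one from 30 to 25 bases before its own. On the opposite strand, TATA letters lay 208 to 203 bases before the last of 3 Foxa2 starts and 34 to 29 bases before the upstream of 2 Prox1 starts. TATA boxes were found in 12.4% of windows. An HNF6 match, present in 6.72% of windows, lay 59 to 54 bases before the upstream of 2 Hnf4a starts and 213 to 208 bases before the first of 3 Foxa2 starts. Foxa1 was the one member with a FOXA match, 141 to 135 bases before its start, against 3.17% of windows. No member window held the C/EBP, full response element, STAT or HNF4 letters, which 9.56%, 1.55%, 0.913% and 0.384% of windows held.

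Hnf4a was among the most abundant of the 9 and on the deposited scale had the narrowest range of FPKM ratios over the 3 libraries. It was at 144 FPKM in Sham (bounds 56.6 to 231), 122 in WI (50.1 to 194) and 136 in IR (54.5 to 218). The 3 sets of bounds overlapped almost entirely. The log2 ratio of FPKM was -0.24 for WI over Sham, with an interval of -1.46 to 0.98 computed from the bounds, and -0.08 for IR over Sham (-1.31 to 1.15). With FPKM rescaled to a common sum, the difference of log2 values was -0.39 for IR against WI and -0.66 for IR against Sham. The file's locus for Hnf4a, chromosome 2 from 163547188 to 163572907, begins near the downstream of its 2 promoters, the one known for use in adult liver, and leaves out the upstream start that RefSeq gives. Hnf4aos, a long noncoding RNA gene that ends before this locus, was at 4.79, 5.21 and 4.80 FPKM.

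**Figure D1:**
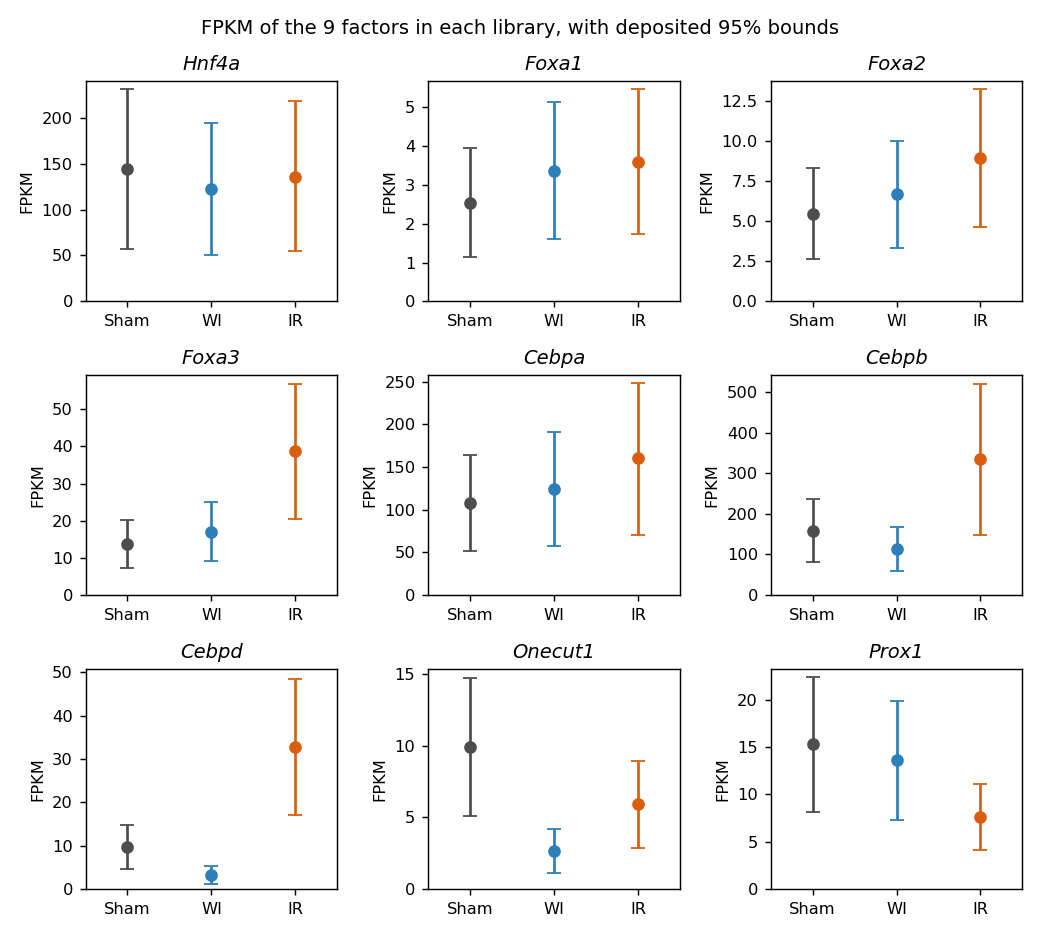
FPKM (vertical axes, linear from 0) of each of the 9 genes in the Sham, WI and IR libraries, 1 library each, with the deposited 95% bounds as bars. The IR point is the highest of the 3 for the FOXA and C/EBP genes, the WI point is the lowest for Hnf4a, Cebpb, Cebpd and Onecut1, and the Hnf4a bounds overlap throughout.

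The FOXA genes were ordered alike in every library, with Foxa3 above Foxa2 and Foxa2 above Foxa1. Foxa3, on chromosome 7 from 19013283 to 19023539, encodes the FOXA protein most abundant as RNA in these livers. It was at 13.7 FPKM in Sham (7.29 to 20.2), 17.1 in WI (9.14 to 25.0) and 38.7 in IR (20.6 to 56.8). The IR value was 2.82 times that of Sham, with bounds that lay just apart, and 2.27 times that of WI, with bounds that overlapped. With FPKM rescaled to a common sum both differences were below 2-fold, at 0.89 against Sham and 0.62 against WI in log2. The log2 ratio was 1.5 (0.54 to 2.45) for IR over Sham and 1.18 (0.23 to 2.13) for IR over WI. Between WI and Sham it was 0.31 (-0.64 to 1.27). The neighbours on either side of Foxa3 were nearly level, with Sympk at 10.1, 11.7 and 12.2 FPKM and Irf2bp1 at 4.27, 4.32 and 5.11.

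Foxa2, which acts in hepatocytes and in bile duct cells, was at 5.46 FPKM in Sham (2.65 to 8.28), 6.68 in WI (3.35 to 10.00) and 8.92 in IR (4.63 to 13.2). Foxa1, the lowest of the family, was at 2.54 (1.13 to 3.94), 3.37 (1.60 to 5.14) and 3.60 (1.73 to 5.46). For both genes the FPKM was lowest in Sham and highest in IR, and all bounds overlapped. Foxa1 and Foxa2 were below WI in IR, by -0.39 and -0.12 as differences of log2 values, once FPKM was rescaled to a common sum. The differences of IR from Sham in log2(FPKM + 1) were 0.62 for Foxa2 and 0.38 for Foxa1, and the latter became -0.07 with the same rescaling. RefSeq lets Ttc6 overlap Foxa1 by 1326 bases, and Ttc6 was at 0.194, 0.237 and 0.233 FPKM. The summed FPKM of the family was 21.7 in Sham, 27.1 in WI and 51.2 in IR. Foxa3 held 63.2%, 63.0% and 75.6% of that sum. The ratio of Foxa3 to Foxa2, which does not depend on the scaling of the libraries, was 2.51 in Sham (1.25 to 5.04), 2.56 in WI (1.29 to 5.05) and 4.34 in IR (2.22 to 8.49), so its intervals overlapped.

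Within the C/EBP family, Cebpa, on chromosome 7 from 35119293 to 35121931, was at 108 FPKM in Sham (51.7 to 164), 124 in WI (57.6 to 191) and 160 in IR (70.9 to 248). Its bounds overlapped in every pair. In log2(FPKM + 1), IR differed from WI by 0.36 and from Sham by 0.56, which became -0.18 and -0.02 with FPKM rescaled to a common sum. After division by the median ratio they were 0.32 and 0.48. Cebpa in IR therefore had no direction that held under every scaling, and only the common sum turned its sign.

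Cebpb, on chromosome 2 from 167688915 to 167690418, was the most abundant member in Sham and in IR. It was at 158 FPKM in Sham (80.3 to 236), 113 in WI (58.3 to 168) and 334 in IR (149 to 519). The IR value was the highest and the WI value the lowest. IR was 2.95 times WI, a log2 ratio of 1.56 (0.50 to 2.62), although the lower bound in IR lay below the upper bound in WI. Against Sham the IR value was 2.11 times as high, a log2 ratio of 1.08 (0.01 to 2.15), and the difference of log2 values fell below 2-fold with a common sum (0.49) and after division by the median ratio (0.99). WI was below Sham, with a log2 ratio of -0.48 whose interval spanned 0 (-1.48 to 0.51). Among all 10792 genes, 282 had a larger difference than Cebpb from WI to IR.

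Cebpd had the widest range of the 9 genes. It was at 9.64 FPKM in Sham (4.57 to 14.7), 3.20 in WI (1.07 to 5.33) and 32.8 in IR (17.0 to 48.5). The IR bounds lay above those of both other samples, and the bounds of WI and Sham overlapped. The IR value was 10.2 times that of WI, a log2 ratio of 3.36 (2.17 to 4.54), and 3.40 times that of Sham, a log2 ratio of 1.77 (0.74 to 2.79). From WI to IR 64 genes had a larger difference. In WI it was lower than in Sham by 3.01 times, a log2 ratio of -1.59 (-2.81 to -0.37). The file gives Cebpd a locus on chromosome 16 from 15887286 to 16146833 that it shares with Spidr, whereas RefSeq ends Cebpd at 15889545. The genes overlap by 322 bases, in which reads of one could be counted for the other. Spidr was at 1.32, 1.33 and 1.14 FPKM.

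The balance of the family shifted with the libraries. Summed over Cebpa, Cebpb and Cebpd, FPKM was 276 in Sham, 240 in WI and 526 in IR. Cebpb made up 57.4% of the sum in Sham, 47.1% in WI and 63.5% in IR, and Cebpd 3.50%, 1.33% and 6.22%. The ratio of Cebpa to Cebpb was 0.682 in Sham (0.333 to 1.40), 1.10 in WI (0.533 to 2.26) and 0.478 in IR (0.218 to 1.05). It was highest in WI and lowest in IR, and all 3 intervals overlapped. The ratio of Cebpd to Cebpb was 0.0609 in Sham (0.0296 to 0.125), 0.0283 in WI (0.0124 to 0.0645) and 0.0981 in IR (0.0471 to 0.204). Cebpb and Cebpd are also expressed in neutrophils, whose markers were higher in IR by the sums given above, and the part of those cells in the Cebpb and Cebpd values was not tested.

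**Figure D2:**
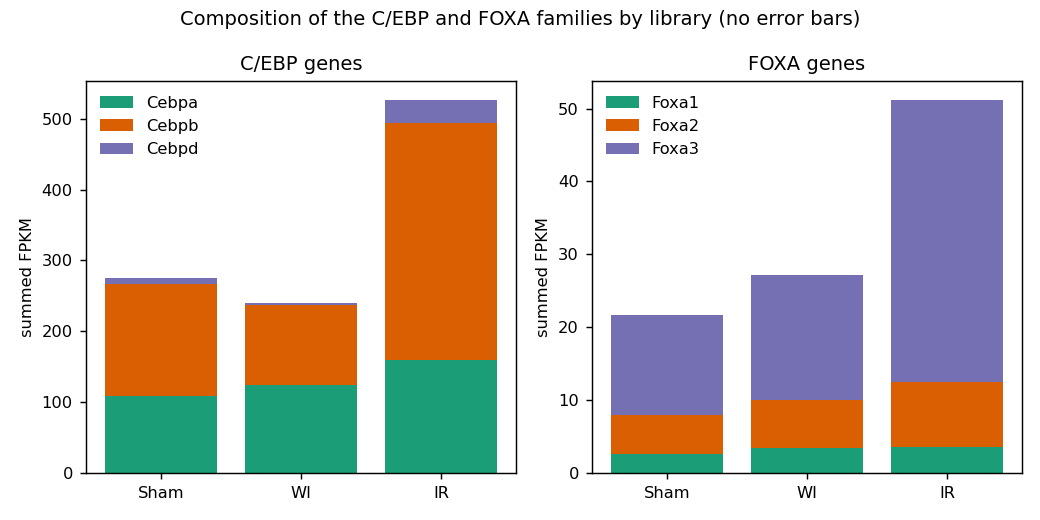
Summed FPKM (vertical axes, linear from 0) of the C/EBP genes and of the FOXA genes in each library, with segments for the single genes and no error bars. The C/EBP sum goes from 276 in Sham to 240 in WI and 526 in IR, mainly through Cebpb, and the FOXA sum from 21.7 to 27.1 and 51.2, mainly through Foxa3.

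Onecut1, on chromosome 9 from 74861921 to 74889647, had the clearest difference after ischemia alone. It was at 9.88 FPKM in Sham (5.08 to 14.7), 2.64 in WI (1.09 to 4.19) and 5.92 in IR (2.87 to 8.96). The WI bounds lay below those of Sham, and the IR bounds overlapped both. WI was 3.74 times lower than Sham, a log2 ratio of -1.90 (-3.00 to -0.80), and 32 genes lay further below Sham. The IR value was 2.24 times that of WI, a log2 ratio of 1.16 (0.04 to 2.29), and remained 1.67 times below that of Sham, a log2 ratio of -0.74 (-1.76 to 0.28). Onecut2, its closest relative in liver, was at 4.48 FPKM in Sham (2.40 to 6.56), 5.85 in WI (3.11 to 8.58) and 3.46 in IR (1.86 to 5.06), and Onecut3 was listed at 0 in all 3. The ratio of Onecut1 to Onecut2 was 2.21 in Sham (1.13 to 4.32), 0.451 in WI (0.213 to 0.957) and 1.71 in IR (0.856 to 3.42). Onecut2 was thus the more abundant of the pair in WI, and Onecut1 in Sham and in IR. The interval of the WI ratio did not overlap that of Sham. RefSeq places Gm33562 over 1216 bases of Onecut1 and Gm38678 over 10748 bases, neither of them listed in the files. TopHat and Cuffdiff ran at default parameters, which do not use strand, so reads of these RNAs could be included. The 7 cholangiocyte markers, from cells that also express Onecut1, summed to 55.0, 62.9 and 95.6 FPKM, of which Spp1 held 51.8, 58.7 and 86.7. The part of these cells in the Onecut1 values was not tested.

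Prox1, on chromosome 1 from 190121777 to 190170680, was at 15.3 FPKM in Sham (8.16 to 22.4), 13.6 in WI (7.29 to 19.9) and 7.60 in IR (4.07 to 11.1). The value was lowest in IR, and the bounds overlapped in every pair. The log2 ratio was -1.01 (-1.96 to -0.06) for IR over Sham and -0.84 (-1.79 to 0.10) for IR over WI. On the deposited scale, Prox1 was the one member lower in IR than in both other samples. The ratio of Hnf4a to Prox1, which does not depend on library scaling, was 9.41 in Sham (4.38 to 20.2), 8.97 in WI (4.23 to 19.0) and 17.9 in IR (8.40 to 38.3). Among the 5 markers of lymphatic endothelium, the other source of Prox1 in liver, Flt4 was lowest in IR and the rest were highest in IR. Pdpn was at 0.0884, 0.121 and 0.140 FPKM and Flt4, which other endothelia also express, at 7.39, 5.06 and 4.76. Lyve1, which sinusoidal endothelium shares, was at 11.2, 2.73 and 33.4. Ccl21a was at 1.21, 1.22 and 3.09, and Mmrn1 at 0.144, 0.155 and 0.346. Summed over the 5 markers, FPKM was 20.0, 9.28 and 41.7, most of it Lyve1 in IR, and the part of these cells in the Prox1 values was not tested.

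The order of levels among the 9 genes fell into an abundant and a less abundant tier. In Sham, Cebpb, Hnf4a and Cebpa overlapped one another, and the lower bound of Cebpa lay above the upper bound of Prox1, the next gene. The remaining neighbours, from Prox1 through Foxa3, Onecut1, Cebpd and Foxa2 to Foxa1, overlapped in turn. In WI the first 3 places went to Cebpa, Hnf4a and Cebpb, and a gap separated them from Foxa3, while Cebpd and Onecut1 were in the last 2 places. In IR the order was Cebpb, Cebpa, Hnf4a, Foxa3, Cebpd, Foxa2, Prox1, Onecut1 and Foxa1. A gap in the bounds then lay between Cebpd and Foxa2, and the bounds of Hnf4a and Foxa3 overlapped. Ranked among all genes, Cebpb was 474th in Sham, 659th in WI and 315th in IR, and Cebpd was 4031st, 7272nd and 1862nd. The 9 genes together held 0.0980%, 0.0832% and 0.102% of the summed FPKM.

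**Figure D3:**
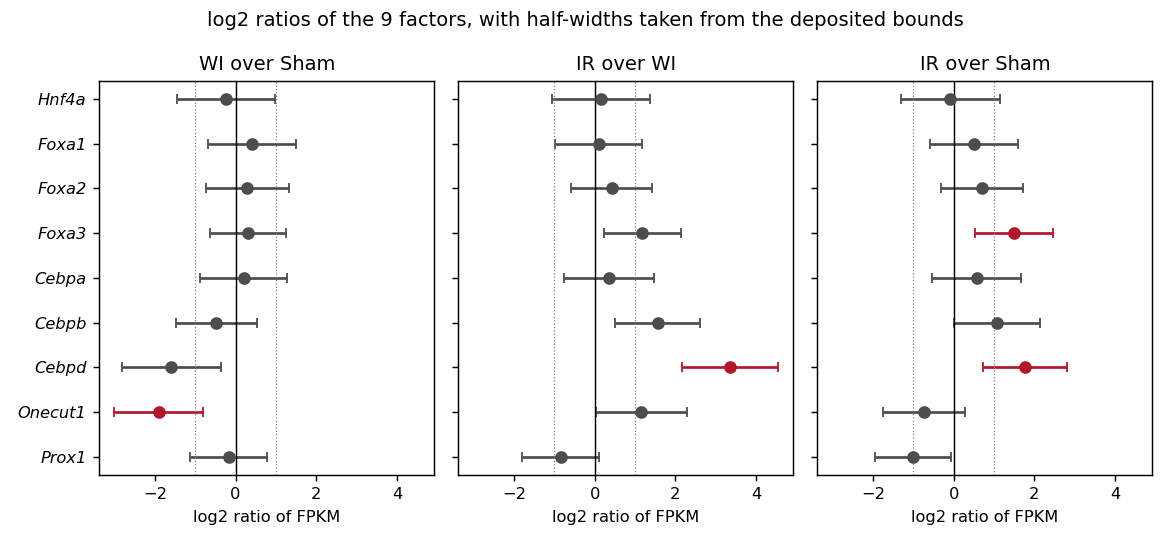
log2 ratio of FPKM (horizontal axes, no pseudocount) of the 9 genes for WI over Sham, IR over WI and IR over Sham. Bars are 95% half-widths computed from the deposited bounds, dotted lines mark 2-fold, and red marks genes whose bounds did not overlap, which are Onecut1 in the first panel, Cebpd in the second, and Foxa3 and Cebpd in the third.

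Counts of members were set against all 10792 genes. A gene was called when FPKM + 1 differed at least 2-fold, or, by the stricter rule, when the bounds of both samples did not overlap. In WI, 2 of the 9 members were called lower than in Sham at 2-fold (Cebpd and Onecut1) against 1.10% of all genes, and 0 higher against 0.751%. By the bounds 1 was lower (Onecut1) against 0.482%, and 0 higher against 0.195%. In IR, 3 members were called higher than in WI at 2-fold (Foxa3, Cebpb and Cebpd) against 5.78%, and 0 lower against 1.43%. By the bounds, 1 was higher (Cebpd) against 3.22%, and 0 lower against 0.398%. Set against Sham, the same 3 genes were called higher in IR at 2-fold against 5.35%, and 0 lower against 2.15%. By the bounds 2 were higher (Foxa3 and Cebpd) against 2.70%, and 0 lower against 1.12%. The comparisons share libraries, so their counts are not independent. The members had been chosen with results of these data known, so the counts describe these 9 genes.

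In log2(FPKM + 1), the 9 genes had a median difference of -0.16 for WI against Sham, 0.37 for IR against WI and 0.56 for IR against Sham. Over all genes the median was 0.015, 0.027 and 0.055, in the same order. The members ranged from -1.58 (Onecut1) to 0.31 (Foxa1) in the first comparison, from -0.77 (Prox1) to 3.01 (Cebpd) in the second and from -0.92 (Prox1) to 1.67 (Cebpd) in the third. Loci listed at 0 for too many fragments, 1 in Sham, 1 in WI and 7 in IR, added nothing to the summed FPKM. That sum was 475754 in Sham, 487912 in WI and 712423 in IR. Rescaling to a common sum therefore moved the median of all genes by -0.481 between IR and WI and by -0.510 between IR and Sham, and turned the split of called genes from 624 higher and 154 lower to 385 and 1185 between IR and WI. For IR against Sham the split went from 577 and 232 to 319 and 1554. On that scale Cebpd (2.64) and Cebpb (1.01) were still 2-fold higher in IR than in WI, Foxa3 was not (0.62), and Prox1 became 2-fold lower (-1.31). Relative to Sham, Cebpd alone (1.14) of the 9 was then 2-fold higher, with Onecut1 (-1.23) and Prox1 (-1.51) 2-fold lower and Foxa3 (0.89) and Cebpb (0.49) below 2-fold.

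**Figure D4:**
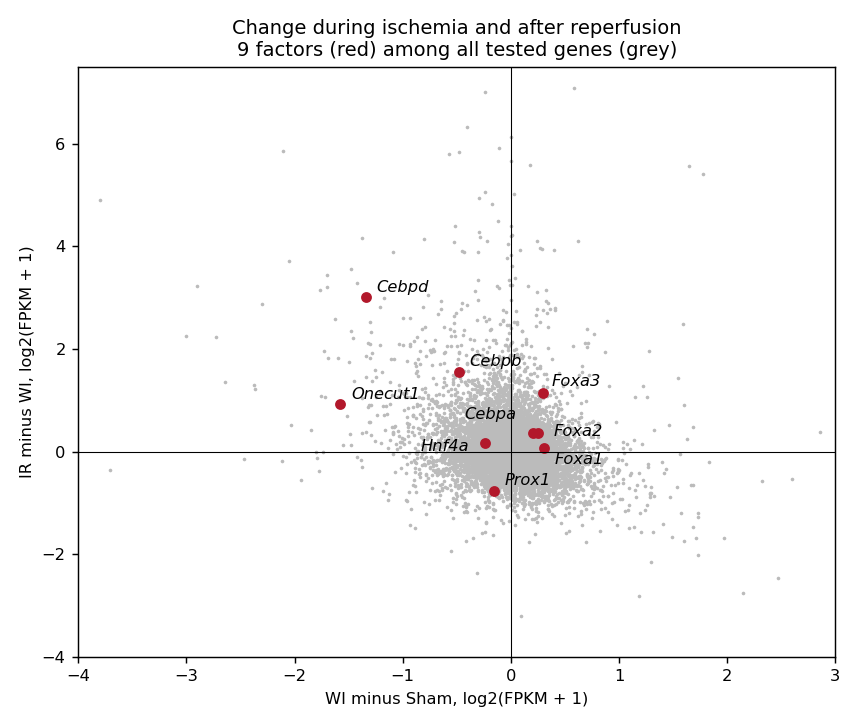
Difference of WI from Sham (horizontal axis) against difference of IR from WI (vertical axis), both on the scale of log2(FPKM + 1), for 10792 genes in grey and the 9 factors in red. Both axes use the WI library, and 16 genes, none of them a member, lie beyond the axes. Cebpd lies at -1.34 and 3.01, Onecut1 at -1.58 and 0.93, Cebpb at -0.48 and 1.55, and Foxa3 at 0.30 and 1.14.

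Other liver-enriched transcription factors were described from a list of 25 genes, of which 24 passed the filter. The shares of all genes called in each comparison, given above for the members, are the background for the counts of this and the following lists on the deposited scale. For counts with a common sum, the numbers among all 10792 genes on that scale are given beside them. In WI 1 was called higher than in Sham (0.751% of all genes), Nr0b2, the bile acid induced repressor SHP, which went from 11.6 FPKM (5.75 to 17.5) to 30.0 (16.1 to 44.0). In IR 2 were higher than in WI (5.78% of all genes) and 3 lower (1.43%). Xbp1, a factor of secretory cells, went from 65.2 FPKM (31.1 to 99.2) to 185 (73.5 to 297), and Gata6 from 2.28 (0.996 to 3.56) to 6.01 (3.09 to 8.94). The lower ones were Nr0b2, at 5.99 in IR (2.65 to 9.32), Tbx3, from 4.31 (2.11 to 6.50) to 0.972 (0.397 to 1.55), and Ppara, the receptor that drives fatty acid oxidation, from 43.2 (17.8 to 68.7) to 17.2 (8.03 to 26.3). The bounds were apart for Nr0b2 and Tbx3. Against Sham, IR had Xbp1 and Atf5 called higher and Ppara lower. The list had a median difference of 0.09 for WI against Sham and of -0.24 for IR against either sample, and the latter became -0.75 (against WI) and -0.80 (against Sham) with FPKM rescaled to a common sum. On that scale 0 were higher and 7 lower in IR than in WI (385 and 1185 of all 10792 genes). Relative to Sham 1 was higher and 5 were lower (319 and 1554 of all genes).

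Of the 6 other C/EBP genes and partners, none was called between WI and Sham, and 2 were called higher between IR and WI (5.78% of all genes). Atf4, which dimerizes with C/EBP proteins, was at 35.6 FPKM in Sham (19.1 to 52.1), 42.6 in WI (22.7 to 62.4) and 96.4 in IR (48.6 to 144). Ddit3, which encodes the C/EBP inhibitor CHOP, was at 3.97, 4.81 and 19.4, with lower bounds at 0 in Sham and in WI. Trib3 was called higher as well in IR against Sham. By the bounds 0 of the 6 were called in any comparison, with the shares of all genes as given above for the members. The remaining C/EBP genes did not follow Cebpb and Cebpd, with Cebpg at 11.7, 11.3 and 11.1 FPKM and Cebpe at 1.66, 3.15 and 2.54. Median differences of this list were 0.24, 0.94 and 0.83 for WI against Sham, IR against WI and IR against Sham, and 0.22, 0.49 and 0.44 with a common sum. On that scale 1 gene was called higher in IR against each other sample (385 of all 10792 genes against WI, 319 against Sham).

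The 13 listed genes of pathways known to induce Cebpb and Cebpd included 11 that passed the filter. In WI the interleukin-1 receptor gene Il1r1 was called lower than in Sham, from 17.9 FPKM (9.04 to 26.8) to 6.05 (3.10 to 8.99), with bounds apart. In IR 6 were called higher than in WI (5.78% of all genes) and 0 lower (1.43%). Among them Il1r1 was at 67.8 in IR (29.7 to 106), Socs3, a target of STAT3, went from 5.38 (2.73 to 8.02) to 109 (50.5 to 167), and Stat3 itself from 24.0 (11.6 to 36.3) to 52.3 (23.0 to 81.6). Il1b went from 7.29 (3.44 to 11.1) to 23.4 (12.5 to 34.3). Il6 was at most at 0.152 FPKM, with lower bounds at 0. Relative to Sham 6 were higher in IR (5.35%) and 1, Il6ra, was lower (2.15%). The list had medians of -0.00, 1.10 and 1.35, and of -0.04, 0.57 and 0.79 with a common sum. On that scale 4 were higher and 1 lower in IR than in WI (385 and 1185 of all 10792 genes). Relative to Sham 4 were higher and 2 lower in IR (319 and 1554), and 2 were lower in WI (181).

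Of 22 acute phase genes, many of them known targets of C/EBPβ and C/EBPδ, 1 was called higher (0.751% of all genes) and 3 lower (1.10%) between WI and Sham. The lower ones were Saa1, Saa2 and Saa3, which encode serum amyloid A, and the higher one was Lcn2. Saa3 was at 57.2 FPKM in Sham (30.4 to 84.1), 27.5 in WI (13.6 to 41.4) and 121 in IR (64.9 to 177), an order of samples shared with Cebpb and Cebpd. In WI 13 of the 22 were higher than in Sham and 9 lower, so most of the list did not share this order. Saa1 was at 3414, 1248 and 3251. In IR 9 were higher than in WI (5.78% of all genes) and 1, Orm2, was lower (1.43%), and the largest difference was that of Cd14, from 5.31 FPKM (2.40 to 8.22) to 110 (55.7 to 164). By the bounds 2 were higher in IR than in WI (3.22%), Saa3 and Cd14, and 0 lower (0.398%). Relative to Sham 8 were higher in IR (5.35%) and 1 lower (2.15%). By the bounds 2 were higher in IR than in Sham (2.70%), Lcn2 and Cd14, and 0 lower (1.12%). The medians of the list were 0.12, 0.49 and 0.56, and the last pair turned to -0.05 and -0.03 with a common sum. On that scale 4 were higher and 2 lower in IR than in WI (385 and 1185 of all 10792 genes). Relative to Sham 3 were higher and 1 was lower (319 and 1554).

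Among 32 genes of hepatocyte function, 31 passed the filter. In WI 2 were lower than in Sham (1.10% of all genes) and 0 higher (0.751%). The lower ones were the gluconeogenic enzyme gene G6pc, from 335 FPKM (130 to 541) to 152 (69.9 to 234), and Igfbp1, from 761 (260 to 1263) to 305 (134 to 476). In IR 1 was higher than in WI (5.78%), Apoa1, and 1 was lower (1.43%). The latter was Cyp7a1, the rate-limiting enzyme of bile acid synthesis, which went from 80.1 (37.4 to 123) to 31.6 (16.4 to 46.9). Relative to Sham 0 were higher in IR (5.35%) and 2 lower (2.15%), Cyp7a1 and G6pc. The medians were 0.03, 0.13 and 0.07, near those of all genes, and they became -0.00, -0.42 and -0.51 with a common sum. The same rescaling moved the median of all genes by -0.481 between IR and WI and by -0.510 between IR and Sham. On that scale 0 of the list were higher. Lower were 5 in IR than in WI (1185 of all 10792 genes), 7 in IR than in Sham (1554) and 3 in WI than in Sham (181).

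**Figure D5:**
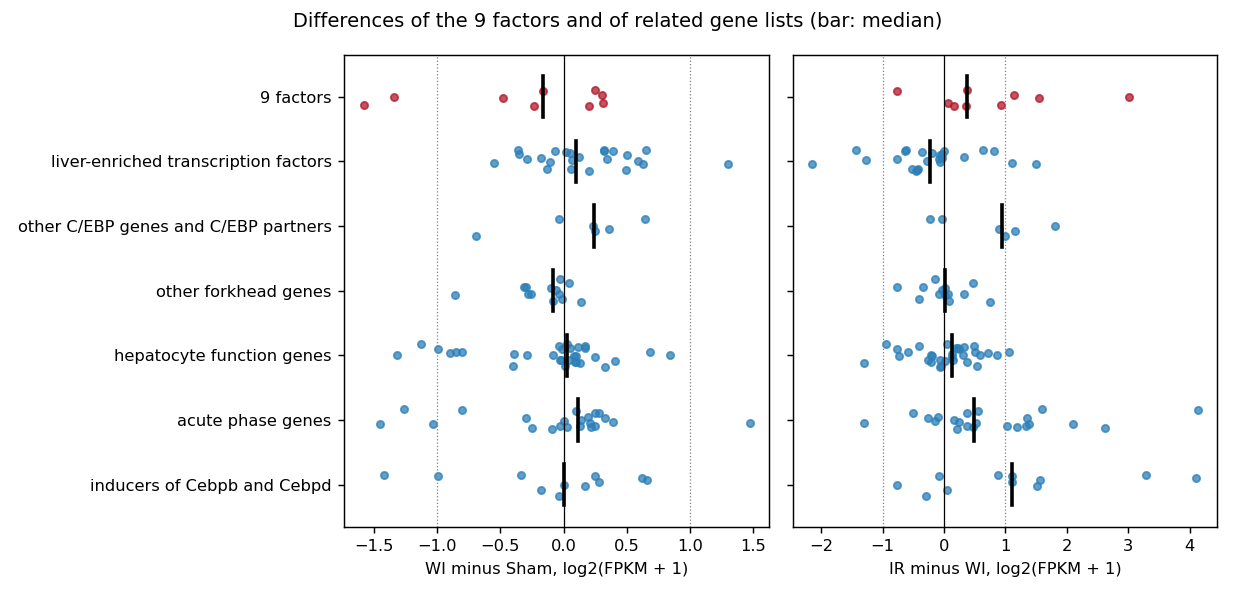
Differences of WI from Sham (left) and of IR from WI (right) on the scale of log2(FPKM + 1), 1 point per gene that passed the filter, for the 9 factors in red and 6 lists in blue. Black bars are medians and dotted lines mark 2-fold, and the list of inducers has a median of -0.00 on the left and 1.10 on the right.

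The genes most like each member were found among 9590 genes whose FPKM reached 1 in every library, by the distance between their log2 ratios (WI over Sham, IR over WI), which rests on 3 libraries. Cebpd and Onecut1 had few genes near them. For Cebpd 4 genes lay within 0.5, the nearest being Il1r1 at 0.133, Gadd45g at 0.261 and Socs2 at 0.358. For Onecut1 6 genes lay within 0.5, the nearest being Arl4a at 0.034, Pla2g7 at 0.226 and Slc45a3 at 0.378. Arl4a went from 21.0 FPKM in Sham to 5.69 in WI and 13.0 in IR. Near Cebpb were Alox5ap, Ppan and Ehd4, with 179 genes within 0.5, and near Foxa3 were Eif6, Fzd7 and Stat3, with 331. The pattern of Prox1 was shared by Prkce, Usp34 and Snx13 and by 1165 genes within 0.5. Those of Hnf4a (Polrmt, Paip1, Stard3), Cebpa (Ptov1, Hars, Asna1), Foxa1 (Stradb, Asgr2, Baat) and Foxa2 (Ifnar2, Akr7a5, Pef1) had 3336 or more genes within 0.5.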

How the data were processed

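Liver mRNA was profiled in 1 library each of the Sham, WI and IR groups. The authors mapped read pairs to mm10 with TopHat (2.0.9 in the submitters' processing notes) at default parameters and computed FPKM per gene with Cuffdiff (Cufflinks 2.0.2). The deposited files hold FPKM, its lower and upper 95% bounds and a status, which was OK for all 9 members in all libraries. They give no counts, so the depth behind each value is not known from them, and Cuffdiff lists a locus with too many fragments at 0. The relative half-width of the bounds was 46.4% to 66.6% for the members and 51.0% to 51.1% in the median of all genes.

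Differences were taken on the scale of log2(FPKM + 1), which understates the change of low genes, over genes whose FPKM reached 1 in any library. Calls were a difference of at least 2-fold or bounds that did not overlap. Intervals of log2 ratios combine the relative half-widths of both bounds in quadrature. No test between groups, leave-one-out or check for batches could be made with 1 library per group. Where a locus start is given, 1 was added to that in the file, since 10559 of 21523 genes matched RefSeq starts in this way and 674 without it. Members and lists were chosen with earlier results of these data known. Named genes are the 9 members, listed genes that passed a rule in a comparison, and up to 4 examples of each list. Added to these are others of the C/EBP, Onecut and forkhead families, the 3 nearest genes by pattern, and genes within 10 kb of a member. Cell type markers and sex-linked genes are named as well. Of 8 neutrophil markers Ly6g was not found. Other pseudocounts, scalings, filters and thresholds were tried. The scripts were tested on simulated data. Python 3.11.15, numpy 2.4.6, pandas 2.3.3 and matplotlib 3.10.9 were used.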

Additional observations from a re-analysis of the deposited data

How the results depend on the processing

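Each number of called genes was recomputed under 9 alternatives, and the members' differences under 4. Of the 108 recomputed differences all stayed within the interval from the bounds. With half-widths of 0.95 or more in log2, these intervals left little room for another outcome, so this says little about stability. Of the 108, 6 turned sign, all with FPKM rescaled to a common sum (Hnf4a, Foxa1, Foxa2 and Cebpa between IR and WI at -0.39, -0.39, -0.12 and -0.18, and Foxa1 and Cebpa between IR and Sham at -0.07 and -0.02). Between WI and Sham the count of 2 members became 0 at 4-fold and 1 by the bounds, and the 200 genes called in all became 382 and 447 with pseudocounts of 0.1 and 0.01, 800 at 1.5-fold, 24 at 4-fold and 73 by the bounds. Between IR and WI the 3 members became 5 at 1.5-fold and 1 both at 4-fold and by the bounds, and the 778 genes became 1239 and 1331 with the lower pseudocounts, 1570 with a common sum, 2132 at 1.5-fold, 194 at 4-fold and 390 by the bounds. Between IR and Sham the 3 members became 6 at 1.5-fold and 0 at 4-fold, and the 809 genes became 1429, 1505, 1873, 2572, 166 and 412 in the same order. Fewer calls at a higher threshold follow from its construction, and the cause of the rest was not tested. Which members were called changed in other settings. Onecut1 joined between IR and WI at 2-fold with pseudocounts of 0.1 and 0.01, Prox1 joined between IR and Sham with 0.01, and Cebpb was lost between IR and Sham after division by the median ratio (0.99). The medians of the gene lists under a common sum, added after seeing the data, moved by under 0.1 for WI against Sham. For IR against WI and against Sham they moved to -0.75 and -0.80 for other liver factors, 0.49 and 0.44 for C/EBP partners, -0.42 and -0.51 for hepatocyte function, -0.05 and -0.03 for acute phase genes, 0.57 and 0.79 for inducers, and -0.42 and -0.62 for other forkhead genes. No paired analysis was possible because each group has 1 library.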

Other observations

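Besides the FOXA genes, 41 other forkhead genes were listed, and 13 of them passed the filter on FPKM. In WI against Sham and in IR against WI, 0 of the 13 were called at 2-fold in either direction, and in IR 1 was lower than in Sham (2.15% of all genes). With FPKM rescaled to a common sum 1 was lower in IR than in WI (1185 of all 10792 genes) and 3 in IR than in Sham (1554 of all genes). The gene lower on the deposited scale was Foxn3, at 6.21 FPKM in Sham (3.18 to 9.23), 4.83 in WI (2.40 to 7.25) and 2.42 in IR (1.07 to 3.78). Foxo1, a forkhead factor that insulin signaling inhibits, was at 15.2 in Sham (8.10 to 22.4), 7.92 in WI (4.25 to 11.6) and 8.02 in IR (4.31 to 11.7), below 2-fold on the scale of log2(FPKM + 1) in each comparison. Foxq1 was at 4.59, 5.14 and 9.36, highest in IR as Foxa3 was. The medians of the 13 genes were -0.08 for WI against Sham, 0.02 for IR against WI and -0.13 for IR against Sham, and -0.12, -0.42 and -0.62 with FPKM rescaled to a common sum.

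Markers of stellate cells, a cell type of the sinusoid wall, were described by 6 genes whose summed FPKM was 145 in Sham, 103 in WI and 106 in IR. Dcn held 130, 91.2 and 95.5 of these sums. Lrat, the enzyme with which these cells store vitamin A, was the one called lower, in IR against WI (1.43% of all genes) and against Sham (2.15%). The list did not move as a whole. In IR 4 of the 6 were higher than in WI and 2 lower, and 3 were higher than in Sham and 3 lower. Col1a1 was highest in IR, at 1.05, 1.05 and 2.69 FPKM.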
